A study of Homo sapiens with 6 samples.

Results

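The RNA-binding proteins described here are the ELAV family, encoded by ELAVL1, ELAVL2, ELAVL3 and ELAVL4, and QKI. They were chosen by name, as 5 of the 58302 Ensembl genes listed in every sample, and ELAVL4 and QKI were put on the list because both were known to be much lower after knockdown of Prp19 in these same samples. Their difference between the groups is therefore given as a description, without a test, whereas ELAVL1, ELAVL2 and ELAVL3 entered as paralogs and were tested. SK-N-BE(2), a human neuroblastoma cell line with abundant MYCN, was transfected with a negative control small interfering RNA (siNC, 3 samples) or with a small interfering RNA against Prp19 (siPrp19, 3 samples), and RNA was sequenced. The labels give 72 h of transfection and the study's methods a shorter time, and each group holds replicates 1, 2 and 3. There was no untransfected group. The study took 1 of its siRNAs against Prp19 into its further assays, so effects of losing Prp19 and of that siRNA sequence cannot be told apart.

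ELAV proteins carry RNA recognition motifs with which they bind U-rich and AU-rich elements, mostly in the untranslated regions and introns of mRNAs, and there they are known to raise mRNA stability and to alter splicing. ELAVL1 (HuR) is made in nearly every cell type. ELAVL2 (HuB), ELAVL3 (HuC) and ELAVL4 (HuD) are largely neuronal, and HuD has long been known as an antigen shared by neurons and neuroblastoma and small cell lung cancer cells. QKI (quaking) belongs to the STAR family, which binds RNA through a KH domain, and is best known for splicing and mRNA handling in myelinating glia and for splicing in mesenchymal cells. Prp19, encoded by PRPF19, is a core protein of the spliceosome.

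The paralogs are alike enough that reads could in principle be given to the wrong gene, so their sequences were compared first. Below is the coding stretch of 60 bases in which ELAVL4 is most like its 3 paralogs, read 5′ to 3′ on the coding strand. Capitals mark bases that differ from ELAVL4. On build GRCh38 the stretch lies in the last coding exon of the compared transcript of each gene, at chr1:50201065-50201124 on the plus strand for ELAVL4, and on the minus strand at chr19:7963534-7963593 for ELAVL1, chr9:23692611-23692670 for ELAVL2 and chr19:11454580-11454639 for ELAVL3.
ELAVL4: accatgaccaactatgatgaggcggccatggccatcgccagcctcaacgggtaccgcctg
ELAVL1: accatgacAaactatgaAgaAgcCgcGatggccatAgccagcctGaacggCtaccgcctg
ELAVL2: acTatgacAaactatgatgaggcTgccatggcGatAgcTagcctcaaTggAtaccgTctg
ELAVL3: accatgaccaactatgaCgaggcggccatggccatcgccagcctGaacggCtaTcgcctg

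Even in this most similar stretch ELAVL3 differed from ELAVL4 at 4 of the 60 bases, ELAVL1 at 8 and ELAVL2 at 9. Over the aligned coding sequences the identity to ELAVL4 was 77.4% for ELAVL3, 75.9% for ELAVL2 and 72.2% for ELAVL1, against 54.4% for QKI, which is not a relative. The longest identical coding run between any pair of the 5 genes was 26 bases, shared by ELAVL3 and ELAVL4. No run of 50 bases occurred in transcripts of more than 1 of the 5 genes (0 shared for each pair), so reads of that length or longer that match exactly are specific to 1 of them. The read length is not given in the sources used here.

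Expression is given as FPKM, fragments per kilobase of exon scaled to the depth of the library, so that levels can be compared between genes, within the limits of the exon lengths used. PRPF19, the gene targeted, stood at 53.1, 53.1 and 64.9 FPKM in the siNC samples (in the order of replicates 1, 2 and 3, kept throughout) and at 21.8, 28.5 and 33.6 FPKM in the siPrp19 samples, so all siPrp19 samples lay below all siNC samples. Its log2 difference of −1.04 (standard error 0.19) had a Benjamini-Hochberg adjusted p of 0.9999 by limma, 0.190 once blocked on replicate number and 1.65e-12 by limma voom on recovered reads with the block. The exact permutation test gave p = 0.10, the smallest that 3 against 3 samples allow.

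ELAVL3 had the highest level of the 5 members, 55.9, 68.8 and 43.7 FPKM with siNC and 64.5, 77.5 and 46.0 FPKM with siPrp19. Its siNC mean of 56.1 ± 12.5 FPKM (SD, n = 3) stood at percentile 95.6 of the 14462 genes tested, which are those whose mean reached 1 FPKM. ELAVL4 was next, with 27.5, 20.9 and 32.8 FPKM with siNC and 19.7, 15.8 and 20.9 FPKM with siPrp19. ELAVL1, the ubiquitous paralog, had 15.3, 14.5 and 16.3 FPKM with siNC and 14.9, 15.1 and 17.3 FPKM with siPrp19, and of the 4 paralogs it varied least. ELAVL2 had 8.90, 8.94 and 12.2 FPKM with siNC and 9.08, 9.53 and 11.3 FPKM with siPrp19. QKI was the lowest of the 5, with 6.97, 8.44 and 7.50 FPKM with siNC and 3.98, 5.77 and 4.98 FPKM with siPrp19.

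The order of levels ELAVL3, ELAVL4, ELAVL1, ELAVL2, QKI was the same in 6 of 6 samples. The ranges of neighbours in this order did not overlap, except for ELAVL4 and ELAVL1, whose levels met in the siPrp19 samples: in siPrp19 replicate 2 the ratio of ELAVL4 to ELAVL1 was 1.05. Between 19058782 and 24181789 reads fell on genes in each sample. The fewest reads recovered from the FPKM values were 809 for ELAVL2, in siNC replicate 2, and 1570 for QKI, in siPrp19 replicate 1, while ELAVL3 had 4118 to 7669. QKI had more reads than ELAVL2 in every sample. Its lower FPKM came from scaling to 17368 annotated exon bases, against 5140 for ELAVL2, so the last place of QKI depends on that length.

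**Figure D1:**
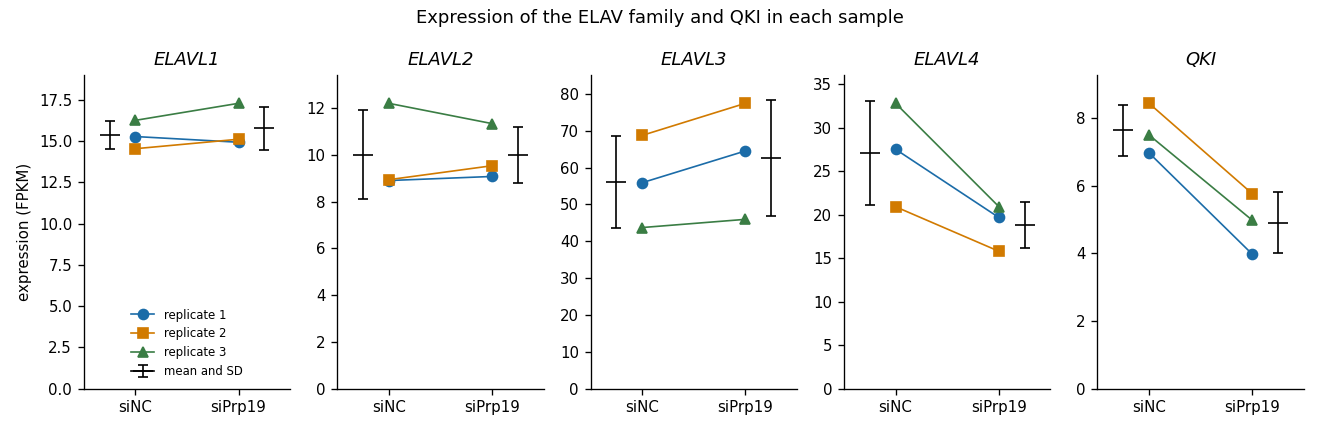
Expression (FPKM, linear axis from 0, 1 panel per gene) of the 4 ELAV paralogs and QKI in each siNC and siPrp19 sample; lines join samples with the same replicate number and black bars give mean and SD (n = 3). The lines of ELAVL4 and QKI all slope down, those of ELAVL3 all slope up slightly, and those of ELAVL1 and ELAVL2 go both ways.

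ELAVL4 and QKI were the members with a lower level after knockdown. QKI (ENSG00000112531) went from a mean of 7.64 ± 0.743 FPKM with siNC to 4.91 ± 0.897 FPKM with siPrp19 (SD, n = 3 each), or 64.3% of siNC, and its highest siPrp19 value lay below its lowest siNC value. In the same-numbered pairs QKI was lower by 43.0%, 31.7% and 33.6%. ELAVL4 (ENSG00000162374) went from 27.1 ± 5.96 FPKM to 18.8 ± 2.68 FPKM (SD, n = 3 each), or 69.4% of siNC. Its groups touched, since siPrp19 replicate 3 and siNC replicate 2 both had 20.9 FPKM, but within pairs ELAVL4 was lower by 28.5%, 24.5% and 36.2%. PRPF19 was at 41.0%, 53.6% and 51.7% of siNC in pairs 1, 2 and 3. Pair 1 had both the lowest remaining PRPF19 and the lowest remaining QKI, whereas ELAVL4 was lowest relative to siNC in pair 3.

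On the scale of log2(FPKM + 0.1), which slightly understates changes of low genes, the difference between siPrp19 and siNC was −0.64 for QKI (standard error 0.17) and −0.51 for ELAVL4 (standard error 0.20), while the median over all genes tested was −0.0040. The spread of the 3 pair differences was 0.14 (SD) for QKI and 0.12 for ELAVL4, smaller than the spread within groups, which was 0.21 and 0.28. The same held for genes in general, with medians over all genes tested of 0.13 for pairs and 0.26 within groups. Among all genes tested, 1.98% had a difference as low as that of QKI or lower, and 2.87% as low as that of ELAVL4 or lower. With the further condition of being lower in 3 of 3 pairs, these shares were 1.12% and 1.76%. Lower in 3 of 3 pairs alone held for 21.3% of genes, and groups without overlap, as seen for QKI, for 2.84% in the lower and 2.77% in the higher direction. QKI was 1.56-fold lower and ELAVL4 1.44-fold, and 2.36% of genes were lower by more than 1.5-fold, 1.39% with 3 of 3 pairs lower. These shares describe where the pair of genes stood and are no test, since both were chosen for this difference.

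**Figure D2:**
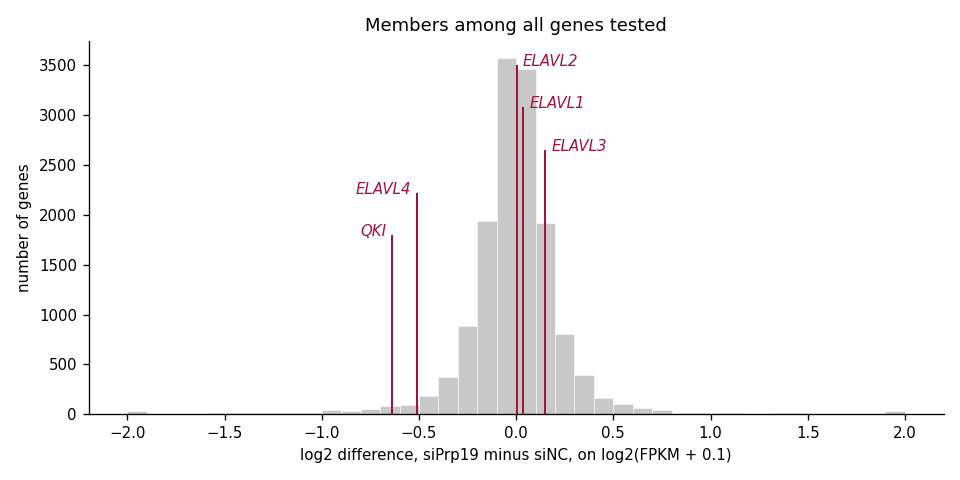
Number of genes (y axis) by log2 difference, siPrp19 minus siNC, on log2(FPKM + 0.1) (x axis, bins of 0.1; genes beyond the axis are in the end bins), for all 14462 genes tested, with red lines at the 5 members. QKI (−0.64) and ELAVL4 (−0.51) stand in the left tail, and ELAVL2, ELAVL1 and ELAVL3 lie within the bulk.

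The other 3 paralogs did not pass the test. By limma over all genes tested, with Benjamini-Hochberg adjustment, 0 genes had an adjusted p under 0.05 (0% called), and 225 (1.56%) had an unadjusted p under 0.05. Blocking on replicate number again gave 0 genes, with 2265 (15.7%) at an unadjusted p under 0.05. ELAVL1 differed by 0.037 on the log2 scale (95% interval −0.24 to 0.32, limma adjusted p = 0.9999), and was lower with siPrp19 in 1 pair and higher in 2. ELAVL2 differed by 0.0049 (−0.40 to 0.41, limma adjusted p = 0.9999), also with 1 pair lower and 2 higher. In the fit with the block the intervals narrowed to −0.096 to 0.17 for ELAVL1 and −0.16 to 0.16 for ELAVL2, which leaves room for changes of about that size in either gene. A difference between paralogs was not tested, since ELAVL4 was picked for its value.

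ELAVL3 was higher with siPrp19 in 3 of 3 pairs, at 115.4%, 112.7% and 105.1% of its siNC level, and 19.2% of all genes tested were higher in 3 of 3 pairs. Its log2 difference was 0.15 (95% interval −0.44 to 0.74, limma adjusted p = 0.9999), and its groups overlapped. With the block the interval was 0.029 to 0.27 and the limma adjusted p was 0.256. By voom with the block, fitted to the recovered reads, the difference was 0.17 with an adjusted p of 0.0444, and 7.68% of the 13705 genes in that fit were called, 3.49% of the 13705 as higher and 4.19% as lower. Without the block, leaving out siNC replicate 3 or siPrp19 replicate 2 turned the difference slightly negative, to −0.018 and −0.019. The exact two-sided permutation test over samples gave p = 0.70 for ELAVL1 and ELAVL3 and 1.0 for ELAVL2, where 3 against 3 samples cannot go below 0.10.

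Because FPKM is scaled to gene length, the 4 paralogs can be added to give the ELAV pool of each sample. The pool was 107.6, 113.2 and 105.0 FPKM with siNC and 108.2, 117.9 and 95.5 FPKM with siPrp19. The mean was 108.6 ± 4.16 FPKM with siNC and 107.2 ± 11.2 FPKM with siPrp19 (SD, n = 3 each), a difference well within the spread. ELAVL4 made up 25.6%, 18.5% and 31.2% of the pool with siNC and 18.2%, 13.4% and 21.9% with siPrp19. ELAVL3 supplied the largest part in every sample, from 41.6% to 60.8% with siNC and from 48.1% to 65.7% with siPrp19. The ratio of ELAVL4 to ELAVL3 was 0.492, 0.304 and 0.750 with siNC and 0.305, 0.204 and 0.456 with siPrp19, so it was lower in each pair while the groups overlapped. Against ELAVL1 the ratio of ELAVL4 was 1.80, 1.44 and 2.02 with siNC and 1.32, 1.05 and 1.21 with siPrp19, without overlap. Against ELAVL2 it was 3.09, 2.34 and 2.69 with siNC and 2.17, 1.66 and 1.85 with siPrp19, again without overlap. These ratios share the ELAVL4 values that placed the gene on the list, and are descriptions.

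**Figure D3:**
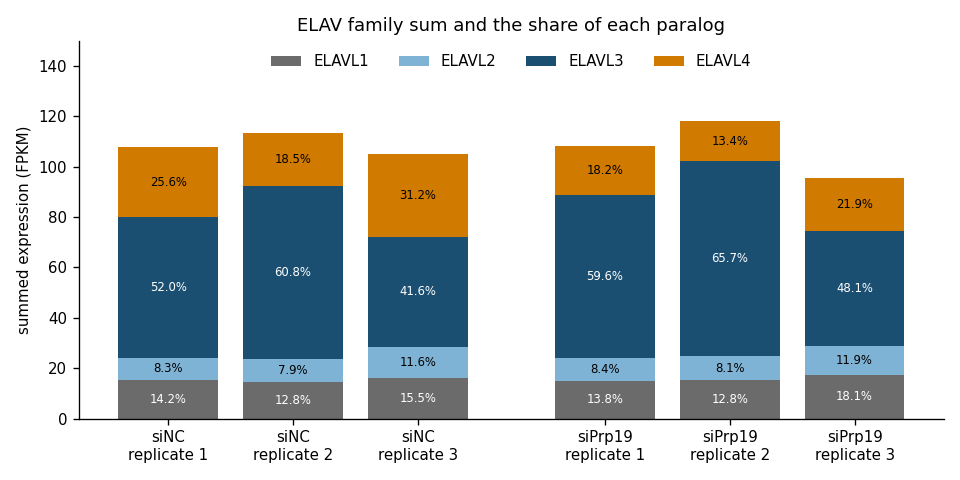
Summed expression of the 4 ELAV paralogs (FPKM, linear axis from 0) in each sample, split by paralog, with the share of each paralog in percent. The bars are of similar height, between 95.5 and 117.9 FPKM, and the ELAVL4 part (top) is smaller in each siPrp19 sample than in the siNC sample of the same replicate number.

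The paralogs also differed by replicate number, an axis the choice of genes did not use. In both groups replicate 3 had the highest ELAVL4, ELAVL2 and ELAVL1 and the lowest ELAVL3 of its group. Relative to the mean of replicates 1 and 2, ELAVL3 in replicate 3 was lower, by −0.50 on the log2 scale with siNC and −0.62 with siPrp19. ELAVL2 was higher in replicate 3 by 0.45 with siNC and 0.28 with siPrp19, ELAVL4 by 0.45 and 0.25, and ELAVL1 by 0.12 and 0.20. QKI showed hardly any such shift, with −0.032 and 0.055. Such patterns were common, with 30.6% of genes tested highest and 27.7% lowest in replicate 3 of both groups, and what set replicate 3 apart is not given in the labels. For ELAVL1, ELAVL2 and ELAVL3 the step between replicate numbers was larger than any difference between siNC and siPrp19 within a pair. For ELAVL4 the step of 0.25 with siPrp19 was smaller than the difference in each pair. With siNC its step of 0.45 was larger in size than the difference in pair 2 (−0.40) and close to that in pair 1 (−0.48).

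ELAVL4 and QKI are both long genes. In GENCODE release 29 on GRCh38, ELAVL4 lies at chr1:50048014-50203786 on the plus strand and spans 155.8 kb, and QKI lies at chr6:163414000-163578596 on the plus strand and spans 164.6 kb. ELAVL2 is nearly as long, at chr9:23690104-23826337 on the minus strand with 136.2 kb, while ELAVL1 (chr19:7958579-8005659, minus strand) spans 47.1 kb and ELAVL3 (chr19:11451326-11481046, minus strand) 29.7 kb. By span QKI, ELAVL4 and ELAVL2 stood at percentiles 92.3, 91.7 and 89.8 of the genes tested. Over all genes tested, the share lower in 3 of 3 pairs was 16.2% among the shortest genes, up to 3.97 kb, and 15.1% among those of 3.97 to 14.7 kb. It was 19.4% among genes of 14.7 to 33.7 kb and 25.8% among those of 33.7 to 77.8 kb. Among the longest 2887 genes, from 77.9 kb upward, which include QKI, ELAVL4 and ELAVL2, it was 30.0%. The share higher in 3 of 3 pairs was not taken by span. The median log2 difference among those longest genes was −0.024, and 0.693% of them were as low as ELAVL4 or lower, against 11.3% of the 2887 shortest. In the groups between, from shorter to longer, this share was 1.11%, 0.762% and 0.554%. The shortest group includes genes with very few reads, and most of the 2.87% of all genes given above lies there. An effect of span was not tested.

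**Figure D4:**
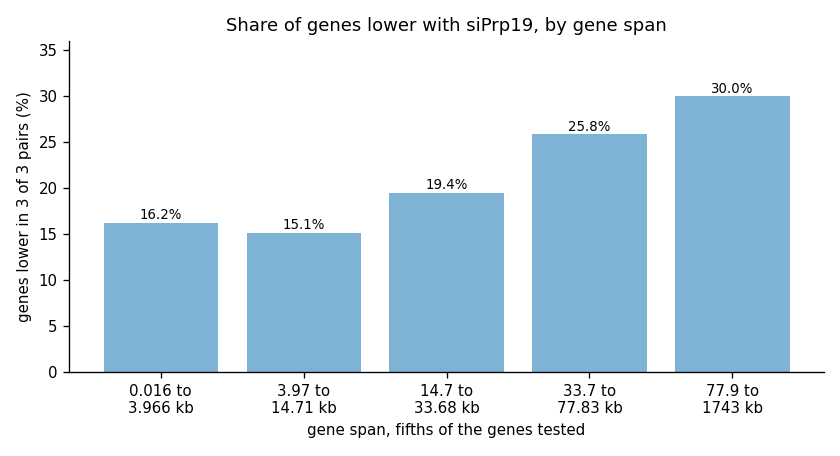
Share of genes lower in the siPrp19 sample of all 3 pairs (percent, y axis from 0) for 5 groups of genes of equal size, ordered by genomic span (kb, x axis). From the shortest to the longest group the share is 16.2%, 15.1%, 19.4%, 25.8% and 30.0%, and ELAVL2, ELAVL4 and QKI lie in the longest.

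The library kit, as the labels name it, is not described as keeping strand, so reads of genes that overlap a member could be counted with it. In the annotation, ELAVL1 shares exon bases with the antisense gene AC010336.6 and ELAVL3 with the gene AC008481.3, and both of these were listed at 0 in 6 of 6 samples. Within introns of ELAVL4 lie AL583843.1, a processed pseudogene on the same strand, and AL592182.2, an antisense gene. They share 0 exon bases with ELAVL4 and were low, at most 1.48 and 0.530 FPKM in any sample. No gene overlapped QKI or ELAVL2.

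The genes whose profile over the 6 samples was most like that of each member were found from the root mean square (RMS) difference between centred log2(FPKM + 0.1) profiles. These profiles span both groups, so nearness to ELAVL4 or QKI includes the difference for which both were chosen. The nearest genes lie below the median distance by construction, and the distances are descriptions. Nearest to ELAVL4 were BACH2, a transcription factor, at 0.0694, NXT2, an mRNA export factor, at 0.0798, and RCN2, a calcium-binding protein of the secretory pathway, at 0.106, where the median gene was 0.407 away. BACH2 and NXT2 had means of only 1.05 and 1.39 FPKM, and BACH2 had 0.832, 0.713 and 1.01 FPKM with siPrp19. Nearest to QKI were KCTD10, an adaptor of ubiquitin ligases, at 0.0854, the chemokine CXCL12 at 0.0937 and TRAPPC2B at 0.0947, where the median gene was 0.431 away. CXCL12 had 5.51, 6.22 and 5.82 FPKM with siNC and 3.17, 4.14 and 4.40 FPKM with siPrp19. For ELAVL3 the nearest were CECR2 (0.0367), ZBTB4 (0.0399) and RAB33B (0.0403). For ELAVL2 they were DBR1 (0.0221), the enzyme that opens intron lariats, PDIA3 (0.0243) and NDUFB6 (0.0311), and for ELAVL1 they were HIRIP3 (0.0153), HINT1 (0.0154) and POLDIP2 (0.0231). No gene was among the nearest 3 of more than 1 member.

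Lists of related RNA-binding proteins and of reported target mRNAs were followed beside the members. In each of the 5 lists, 0 genes had an adjusted p under 0.05 by limma, with or without the block, against a background of 0%. The genes at an unadjusted p under 0.05 are given per list, as are those called by voom with the block. The relatives of QKI in the STAR family, SF1 and the KHDRBS (Sam68) genes, stayed close to their siNC level. Of the 4, 3 were tested, with a median log2 difference of −0.016 and values from −0.042 for KHDRBS3 to −0.0052 for SF1, and KHDRBS2 was listed at 0 in every sample. In the fit with the block and in voom, 0 of the 3 had an unadjusted or adjusted p under 0.05, respectively.

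Of 29 other neuronal and splicing RNA-binding proteins 22 were tested, 15 of them with a log2 difference below 0 and 7 above, and the median was −0.063, beside 51% of all genes below 0. They were lower in 3 of 3 pairs for 8 genes and higher for 5, where the background was 21.3% and 19.2%. The highest was CELF3, a brain-enriched splicing regulator, with 19.0, 19.8 and 14.8 FPKM with siNC and 25.1, 25.1 and 20.3 FPKM with siPrp19. Its log2 difference was 0.40 (standard error 0.16, limma adjusted p = 0.9999), and CELF3 was the 1 gene of the list at an unadjusted p under 0.05, while 7 of 22 were with the block, where the share over all genes was 15.7%. The lowest was IGF2BP3, an oncofetal mRNA-binding protein, with 8.45, 7.72 and 10.2 FPKM with siNC and 7.04, 6.62 and 7.91 FPKM with siPrp19, a log2 difference of −0.28 (standard error 0.15). In voom with the replicate block, 4 of the 21 genes in that fit were higher and 3 lower at an adjusted p under 0.05, beside 3.49% and 4.19% of all genes. The higher genes were CELF3, SRRM3 and SRRM4, which promote neuronal microexons, and FXR2, a paralog of the fragile X protein, and the lower ones were IGF2BP3, MSI2 and MBNL1, named here after their values were seen.

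Proteins that compete with ELAV proteins for AU-rich elements, among them the decay factors of the ZFP36 family, were tested for 8 of 8 genes. Of these 7 had a log2 difference below 0, as had 51% of all genes tested, and the median was −0.16. In 3 of 3 pairs 4 were lower and 0 higher, beside 21.3% and 19.2% of all genes. ZFP36L2 was the lowest, with 14.5, 21.7 and 22.7 FPKM with siNC and 8.84, 13.6 and 17.1 FPKM with siPrp19, a log2 difference of −0.59 (standard error 0.29, limma adjusted p = 0.9999) and overlapping groups. The only value above 0 was that of HNRNPD (AUF1), at 0.032. Counting unadjusted p under 0.05, limma gave 0 of the 8 genes without the block and 3 with it, beside 1.56% and 15.7% of all genes. In voom with the block 3 of the 8 genes were lower at an adjusted p under 0.05, which were ZFP36L2, ZFP36L1 and YBX1, where 4.19% of genes were so in that fit. The median came to −0.062 when siNC replicate 2 was left out.

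Of 29 mRNAs reported as bound by ELAV proteins, 27 were tested, with a median of −0.12. Of these 22 had a difference below 0, beside 51% of all genes. In 3 of 3 pairs 16 were lower and 3 higher, beside 21.3% and 19.2% of all genes. The values ran from −0.56 for CDKN1A, the cell cycle inhibitor p21 (standard error 0.42, limma adjusted p = 0.9999), to 0.15 for MAPT, the microtubule protein tau. MYCN, a reported HuD target, had 991.6 ± 161.2 FPKM with siNC and 1040.2 ± 214.0 FPKM with siPrp19 (SD, n = 3 each). GAP43, the classic neuronal HuD target, had 99.6, 86.3 and 137.4 FPKM with siNC and 96.8, 80.1 and 113.7 FPKM with siPrp19. Counting unadjusted p under 0.05, limma gave 0 of the 27 genes without the block and 7 with it, beside 1.56% and 15.7% of all genes. In voom with the block 5 of 25 genes were lower and 0 higher at an adjusted p under 0.05, where 4.19% of all genes were lower and 3.49% higher. The lower genes were CDKN1A, the cyclin CCND1, FOS, HIF1A and VEGFA, named after their values were seen. The study had reported the lower CCND1 from these data, so its call here is a description. Leaving out siPrp19 replicate 1 brought the median to −0.041.

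Of 13 mRNAs reported as regulated by QKI 7 were tested, and the others, among them the myelin genes MBP and MAG and also MYOCD, FOXO1 and GFAP, were below a mean of 1 FPKM. Of the 7, 5 had a difference below 0 and 4 were lower in 3 of 3 pairs, beside 51% and 21.3% of all genes, with a median of −0.098. The limma test gave 0 of them at an unadjusted p under 0.05 without the block and 2 with it, beside 1.56% and 15.7% of all genes. They ran from −0.22 for NUMB, an inhibitor of Notch signaling whose splicing QKI is known to alter (standard error 0.13, limma adjusted p = 0.9999), to 0.13 for HNRNPA1. HNRNPA1 was the only gene of the list higher in 3 of 3 pairs, beside 19.2% of all genes. It was also the 1 of 6 genes past an adjusted p of 0.05 in voom with the block, where 3.49% of all genes were called higher. NUMB was not in that fit. Without siPrp19 replicate 3 the median was −0.0084. The ELAV and QKI lists share CDKN1B and CTNNB1. FPKM per gene does not resolve splice forms, so splicing of these targets was not measured.

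**Figure D5:**
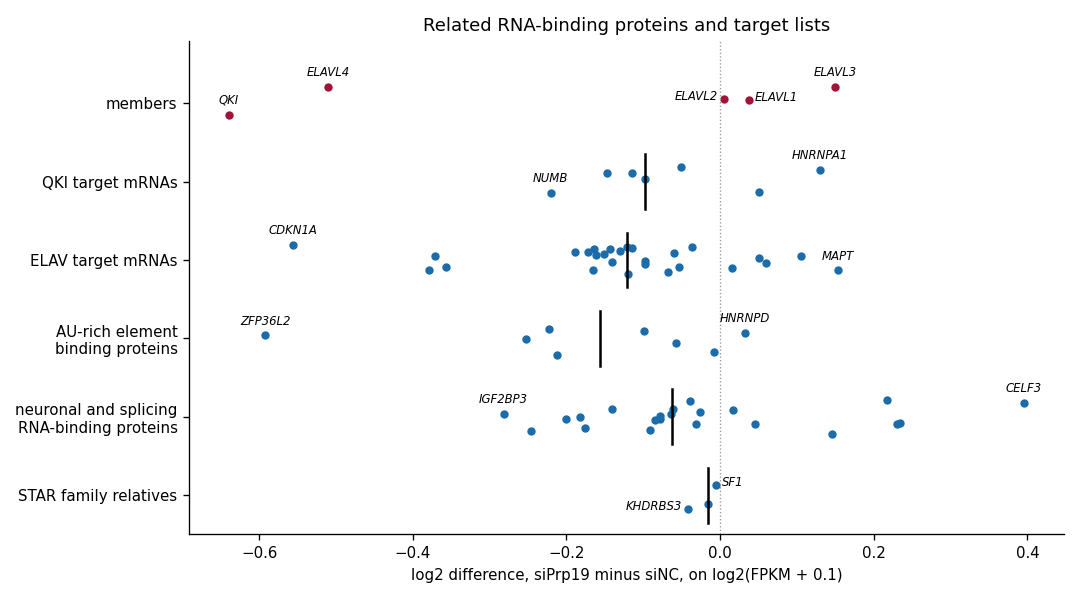
Log2 difference, siPrp19 minus siNC, on log2(FPKM + 0.1) (x axis) of each tested gene of the 5 lists and of the members (rows; vertical position within a row has no meaning); black bars are list medians and the named genes are the lowest and the highest of each list. ZFP36L2 (−0.59) and CDKN1A (−0.56) lie near QKI and ELAVL4, and CELF3 (0.40) is the highest.

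Markers of cell types were checked because QKI and the ELAV genes differ in the cells that make them. In bulk RNA, fewer cells of a type and less RNA per cell cannot be told apart. Of the neuroblastoma markers, the transcription factor HAND2 had 350.0, 346.4 and 274.2 FPKM with siNC and 339.0, 323.4 and 268.2 FPKM with siPrp19. GATA3, another transcription factor of these cells, had 102.2, 131.6 and 100.3 FPKM with siNC and 103.9, 122.3 and 109.8 FPKM with siPrp19, and MYCN was high in every sample, as given above. Of the 6 glial markers SOX10 was at 0 in every sample and the sum was 1.96 to 3.42 FPKM with siNC and 2.79 to 3.40 FPKM with siPrp19. The 11 mesenchymal markers summed to 323.7 to 409.2 FPKM with siNC and 323.5 to 386.6 FPKM with siPrp19. Of the 9 tested 7 had a log2 difference below 0, beside 51% of all genes, with a median of −0.19. YAP1 was the lowest at −0.92. By limma 0 passed the adjusted threshold, and only YAP1 had an unadjusted p under 0.05, as had 1.56% of all genes. The study had reported the lower YAP1 from these data, so its value here is a description. YAP1 had a mean of 1.59 FPKM with siNC and 0.814 FPKM with siPrp19, and reached the filter through its siNC values. In voom with the block 3 of 7 mesenchymal markers were lower, beside 4.19% of all genes. These were YAP1, FN1 and WWTR1, named after their values were seen. CD44 (−0.19) and SNAI2 (−0.32) were not in that fit. YAP1 is part of these counts and of the median, so they are descriptions and no test. The part of the mesenchymal markers in the lower QKI was not tested. The 4 immune markers summed to at most 1.49 FPKM in any sample and the 4 epithelial ones to at most 3.02 FPKM.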

How the data were processed

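The authors deposited 1 table per sample with FPKM values for 58302 Ensembl genes. Their processing notes name HISAT2 2.0.5, featureCounts 1.5.0-p3 and build hg38; the annotation release is not given in the sources used here. Symbols, spans and exon lengths came from GENCODE release 29, in which 58039 identifiers were found. FPKM times exon length was a whole number of reads (within 0.02 reads for low values) in all samples for 97.4% of these genes, and for 96.0% of those not listed at 0 everywhere. The reads on genes were 19058782 to 21943936 with siNC and 22273026 to 24181789 with siPrp19.

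Genes whose mean reached 1 FPKM were tested on log2(FPKM + 0.1) with limma 3.58.1 (R 4.3.3, eBayes with trend) and Benjamini-Hochberg adjustment, since the deposited unit is FPKM and not counts, with limma voom on the recovered reads as an alternative to the count test of the study's methods. Same-numbered samples deviated together from their group means (r over genes 0.38 to 0.64, other pairs at most 0.05), so replicate numbers, which come from the labels, were also used as a block. The labels do not say what the replicates share. The p-values measure only the spread between these samples.

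The members, lists and rule for named genes (the extremes of each list, the 3 genes nearest to each member, overlapping genes) were chosen with earlier results of these data known. The fit was tested on simulated data. Alternatives were a pseudocount of 1, no filter, a minimum mean of 5 FPKM, TPM, the replicate block, eBayes without trend and robust, limma voom on the reads (without and with that block), and each sample left out. Coding sequences were aligned in Python 3.11.15. Other assays of the study were not analysed here. Values of some list genes are not reported here.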

Additional observations from a re-analysis of the deposited data

How the results depend on the processing

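The differences of ELAVL4 and QKI kept their direction and moved by less than the spread within groups in all 14 alternatives. With each sample left out in turn they ranged from −0.68 to −0.36 for ELAVL4 and from −0.76 to −0.50 for QKI. The replicate block, the filters and the eBayes setting cannot change these estimates in this balanced design. They stayed at −0.51 and −0.64 there, which is no check of them. The count of genes past an adjusted p of 0.05 was 0 in 12 of the 14 alternatives, the replicate block among them. It was 1 with limma without trend and robust (MIR6889, named after its values were seen, with 3, 4 and 2 reads with siNC and listed at 0 with siPrp19) and 1052 in voom on the recovered reads with the replicate block. That fit also put PRPF19 (−1.03) and ELAVL3 (0.17) past the threshold, and the block changed no other call of PRPF19 or the tested paralogs. The cause was not tested. Leaving out single samples, the count stayed at 0 to 0, PRPF19 ranged from −1.19 to −0.87, and the direction was not fixed for ELAVL1 (−0.030 to 0.079), ELAVL2 (−0.089 to 0.15) and ELAVL3 (−0.019 to 0.36). List medians then ranged from −0.19 to −0.062 for AU-rich element binding proteins, −0.18 to −0.041 for ELAV targets, −0.15 to −0.0084 for QKI targets, −0.090 to −0.0041 for neuronal and splicing RNA-binding proteins and −0.11 to 0.042 for STAR relatives. With 3 samples a group, limma without the block leaves wide intervals. The widest among ELAVL1 to ELAVL3, that of ELAVL3, ran from −0.44 to 0.74 on the log2 scale.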
